A study of Mus musculus with 6 samples.

Results

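The miR-99/100 and miR-125 microRNAs were followed through a comparison of mouse natural regulatory T cells with conventional T cells. They were the 6 probes 1org-125a, 1org-125b, 1org-99a, 1org-99b, 2org-100 and 2org-99 in the table of array values, out of 171 miRNA probes, and are called miR-125a, miR-125b, miR-99a, miR-99b, miR-100 and miR-99. Each of 6 two-colour arrays set total RNA of CD4+25+ cells (natural regulatory T cells) against total RNA of CD4+25- cells (conventional CD4+ T cells), and the arrays stood for 3 biological replicates, each with its dye swap. CD4+25+ RNA carried Cy5 on arrays 1, 3 and 5 and Cy3 on arrays 2, 4 and 6, counted by the number in their titles. The labels name no treatment, genotype, strain, age or sorting scheme. They also do not say which arrays formed a dye-swap pair or whether the replicates came from separate animals, so the spread of these replicates may be technical. A limma p-value here is set against that spread pooled largely over the probes, and not against a probe's own spread alone. CD4, CD25 and Foxp3, which define the populations, are not miRNAs, so the cell labels could not be checked on these arrays. In bulk RNA such as this, fewer cells of a type and less of a miRNA per cell cannot be told apart.

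MicroRNAs are small RNAs that pair with messenger RNAs and lower their output, and bases 2 to 8 of the miRNA, the seed, do most of the pairing. The miR-125 miRNAs are the mammalian relatives of worm lin-4, and miR-125b is known as a regulator of blood stem cells and lymphocyte maturation. The miR-99/100 miRNAs are known to act on the mTOR kinase, a growth regulator that restrains regulatory T cell formation. In mammals the members lie in clusters of one miR-99/100 gene, one let-7 gene and one miR-125 gene, so that paralogous clusters make nearly the same miRNAs from different chromosomes.

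The mature sequences below are shown because the members fall into 2 seed groups, and because the paralogous clusters compared here encode near copies of each other. They are RefSeq sequences of the 5p arm on GRCm38.p6, matched by name for 5 of the 6 probes and written 5′ to 3′ with the seed in capitals.
miR-125a: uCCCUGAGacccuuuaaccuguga
miR-125b: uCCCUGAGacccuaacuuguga
miR-99a: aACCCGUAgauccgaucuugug
miR-99b: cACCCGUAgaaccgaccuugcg
miR-100: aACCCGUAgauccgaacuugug
The first pair shared one seed and the last 3 another. Counted from 1 at the 5′ end of miR-99a, miR-100 differed from it by U16A alone. miR-99b differed from miR-99a by A1C, U11A, U16C and U21C, all outside the seed. miR-125a and miR-125b had the same first 13 and last 5 bases, with miR-125a 24 and miR-125b 22 bases long. The sixth probe, miR-99, has no letter and could not be assigned to one of these sequences. The array probes' own sequences and arm were not used here, and whether neighbouring probes told these near copies apart was not tested. Of the other RefSeq mouse miRNAs with one of these seeds, which were miR-351-5p, miR-6367 and miR-6394, none had a probe with its number.

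On GRCm38.p6 mature miR-99b lies at chr17:17830194-17830215 (+ strand), let-7e at chr17:17830366-17830387 and miR-125a at chr17:17830817-17830840, so the start of miR-125a is 623 bases downstream of that of miR-99b. miR-99a lies at chr16:77598940-77598961, with a let-7c gene 732 bases and a miR-125b gene (chr16:77646279-77646300) 47339 bases downstream. miR-100 lies at chr9:41531437-41531458, with the other miR-125b gene (chr9:41581940-41581961) 50503 bases downstream and a let-7a gene between them. Mature miR-125b has the same sequence from both of its genes, so its probe reads their sum. These are reference positions of the genes, since the array table names no genome build.

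All ratios below are log2 ratios of CD4+25+ over CD4+25- cells, with the arrays of CD4+25+ RNA in Cy3 multiplied by -1. They take the deposited value as log2 of Cy5 over Cy3, which follows the order of the channels but is not stated with the table, so that the opposite reading would turn every sign. Errors are SDs over 3 replicate values, each the mean of 2 arrays of opposite dye. A disagreement between the dye orientations cancels in such means, so neither these SDs nor the p-values from these means measure it. Of the 6 ways to pair the arrays, the one with the largest SD and the one with the largest p give the printed values. A probe was called when its limma p, Benjamini-Hochberg adjusted over the 171 miRNA probes, was under 0.05 in each pairing. The zero point needs care in these data. The median of the turned miRNA values was -0.085, -0.31 and 0.097 on the arrays with CD4+25+ in Cy5 but 1.83, 1.29 and 1.82 on those with it in Cy3, and 28 probes for miRNAs best known from elsewhere (liver, muscle, epithelium, neurons and embryonic stem cells), called off-tissue probes here, had a median of 0.86 over their mean ratios. The ratios are therefore also given relative to the median of the array. Turned arrays of opposite dye correlated at -0.25 to 0.37 over the miRNA probes, against 0.52 to 0.62 among arrays with CD4+25+ in Cy5 and 0.90 to 0.92 among those with it in Cy3, given as a description.

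Of the 6 members, 5 were called higher in CD4+25+ cells on the turned values and none lower, while 67.3% of all miRNA probes were called higher, so the count of 5 must be read against that share. Relative to the array median 1 of the 6, miR-125a, was called higher and none lower in limma (also none lower at an unadjusted p under 0.05), against 5.26% of all miRNA probes called higher and 22.8% called lower. With the zero set on the off-tissue probes 1 member, again miR-125a, was called higher (3.51% of all miRNA probes), and with it set on U6 and the tRNAs 5 were (73.7%). The members' median ratio was 0.94, beside 0.82 for all miRNA probes, and relative to the array median it was 0.17, beside 0.051. miR-125a was thus the one member called under each of the 4 zero points. The other 5 lay between -0.49 and 0.37 relative to the array median and were not called there.

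miR-125a, one of the miR-125 pair and encoded in the chromosome 17 cluster, had ratios of 1.53, 1.89 and 1.42 on the arrays with CD4+25+ in Cy5 and 2.23, 1.54 and 1.85 on those with it in Cy3. All 6 arrays were above 0, as for 8.19% of all miRNA probes, and the dye orientations overlapped. The mean was 1.74 ± 0.292 (SD, n = 3), or 3.35-fold (limma adjusted p = 0.00132), with rank 4 by mean ratio among the 171 probes (rank 55 if the swapped arrays are not turned). Relative to the array median, its values were 1.62, 2.20 and 1.33 with CD4+25+ in Cy5 and 0.40, 0.25 and 0.030 with it in Cy3. It lay above the median on 6 of 6 arrays, as did 5.85% of all miRNA probes, but far above it on the Cy5 arrays and just above it on the others. The mean relative to the median was 0.97 ± 0.314 (SD, n = 3), or 1.96-fold (limma adjusted p = 0.00134). This call rested on the arrays with CD4+25+ in Cy5. Those 3 arrays alone gave 1.72 (limma adjusted p = 0.00163), and the 3 with it in Cy3 alone gave 0.23 (adjusted p = 0.305). It was also lost without arrays 1 and 4 (0.99, limma adjusted p = 0.0578) or 1 and 6 (1.05, adjusted p = 0.0628). Those fits called 2.34% and 0.585% of all miRNA probes higher both on the turned values and relative to the median. The call on the turned values was lost without arrays 3 and 2 (1.59, adjusted p = 0.0594), a fit that called 0% of all miRNA probes higher.

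miR-99b, which shares the cluster with miR-125a, had ratios of 1.43, 1.74 and 1.78 with CD4+25+ in Cy5 and 1.04, -0.17 and 1.06 with it in Cy3. The Cy5 arrays were as high as for miR-125a, and array 4 was the single one below 0. The mean of 1.14 ± 0.447 (SD, n = 3) was called (limma adjusted p = 0.00569), with rank 23 among the 171 probes (rank 11 if not turned). Relative to the array median it had 1.52, 2.06 and 1.68 with CD4+25+ in Cy5 and -0.79, -1.46 and -0.76 with it in Cy3. The orientations lay on opposite sides of the median without overlap, and each passed alone in its own direction, with means of 1.75 (limma adjusted p = 0.00118) and -1.01 (adjusted p = 0.00124). The mean over both, 0.37 ± 0.315 (SD, n = 3), was not called (limma adjusted p = 0.159). After scale normalization, which gives the Cy5 arrays more weight, it was called at 1.38 (adjusted p = 0.0189). So miR-99b stood high in CD4+25+ cells on the arrays with those cells in Cy5 and low in them, relative to the other probes, on the swapped arrays.

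**Figure D1:**
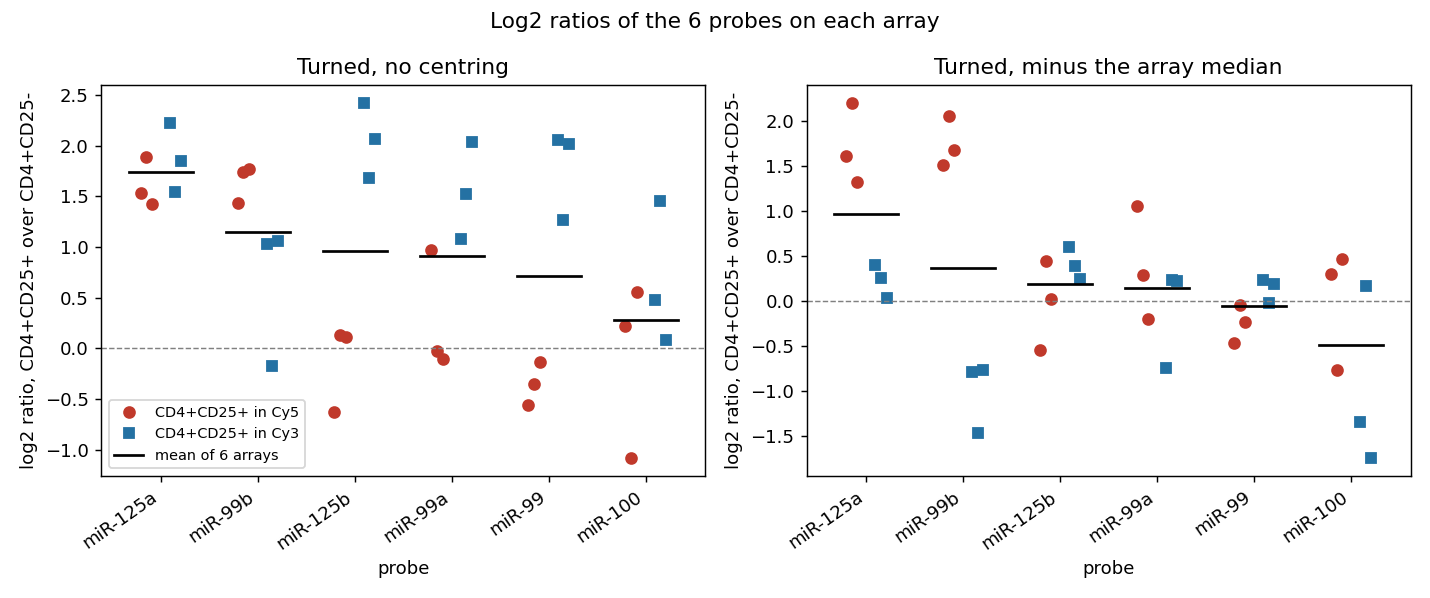
Log2 ratio, with CD4+CD25+ cells as numerator and CD4+CD25- cells as denominator (vertical axis), for the 6 probes (horizontal axis) on each of 6 arrays, turned to one direction, without centring on the left and minus the array median on the right. Circles are the 3 arrays with CD4+CD25+ RNA in Cy5, squares the 3 with it in Cy3, and bars the mean of 6 arrays. miR-125a lies above 0 on 6 of 6 arrays in both panels, and miR-99b splits by dye on the right, between 1.52 and 2.06 against -1.46 to -0.76.

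The members of the paralogous clusters had smaller mean ratios over both dyes, but not on the arrays with CD4+25+ in Cy3 alone, where the means were 2.06 for miR-125b and 1.55 for miR-99a against 1.87 for miR-125a and 0.64 for miR-99b. miR-125b had ratios of -0.63, 0.13 and 0.12 with CD4+25+ in Cy5 and 2.42, 1.68 and 2.07 with it in Cy3. The orientations did not overlap, and all the height came from the Cy3 arrays, whose median probe was also high. Its mean of 0.96 ± 0.390 (SD, n = 3) was called (limma adjusted p = 0.00709), and relative to the array median it stood at 0.19 ± 0.334 and was not called (adjusted p = 0.548). The miR-99 probe without a letter had a like pattern, with -0.55, -0.35 and -0.14 in one orientation and 2.06, 1.27 and 2.02 in the other. Its mean of 0.72 ± 0.318 (SD, n = 3) was called (limma adjusted p = 0.0141), and relative to the array median it was -0.057 ± 0.173 (adjusted p = 0.866).

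miR-99a had ratios of 0.97, -0.020 and -0.10 with CD4+25+ in Cy5 and 1.08, 1.52 and 2.04 with it in Cy3. Array 1 stood apart from the other 2 arrays of its orientation. The mean of 0.92 ± 0.528 (SD, n = 3) was called (limma adjusted p = 0.0107), and 0.14 ± 0.566 relative to the array median was not (adjusted p = 0.686). miR-100, which differs from miR-99a at one base, was the lowest and most uneven member. It had 0.22, -1.08 and 0.56 with CD4+25+ in Cy5 and 0.48, 1.45 and 0.079 with it in Cy3. Its orientations overlapped, and arrays 3 and 4 were its lowest and highest. Its mean of 0.29 ± 0.755 (SD, n = 3) was not called (limma adjusted p = 0.312), nor was -0.49 ± 0.785 relative to the array median (adjusted p = 0.162). It was the single member not called on the turned values. An array of each orientation was then left out, in 9 fits. On the turned values miR-125a was called in 8 of them, miR-125b and miR-99b in 7 each, miR-99a in 4 and miR-99 in 3. miR-125b and miR-99b were not called without arrays 3 and 2 (0.81 and 1.02, limma adjusted p = 0.0811 and 0.0692) or 5 and 6 (0.90 and 1.01, adjusted p = 0.0841 for both). Those fits called only 0% and 1.17% of all miRNA probes higher. miR-99a lost its call without arrays 1 and 2, 3 and 2, 3 and 4, 1 and 6 or 5 and 6 (0.62 to 1.11), and miR-99 in every fit without array 2 or 6 (0.59 to 0.71). The share of all miRNA probes called higher was 0% to 66.1% in those fits of miR-99a and 0% to 59.1% in those of miR-99.

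Ordered by mean ratio on the turned values the members ran miR-125a, miR-99b, miR-125b, miR-99a, miR-99 and miR-100. Without turning the order would be miR-99b, miR-125a, miR-100, miR-99a, miR-99 and miR-125b. On the turned values miR-125a exceeded the next, miR-99b, by 0.60 ± 0.358 (SD, n = 3), higher on 5 of 6 arrays. Each of the other neighbours in that order differed by less than its spread. Those differences were 0.18 ± 0.325 between miR-99b and miR-125b, 0.049 ± 0.788 between miR-125b and miR-99a, 0.20 ± 0.679 between miR-99a and miR-99, and 0.43 ± 0.905 between miR-99 and miR-100. Over the 3 replicates an exact two-sided sign-flip test cannot give a p below 0.25, so no difference between members could pass it.

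**Figure D2:**
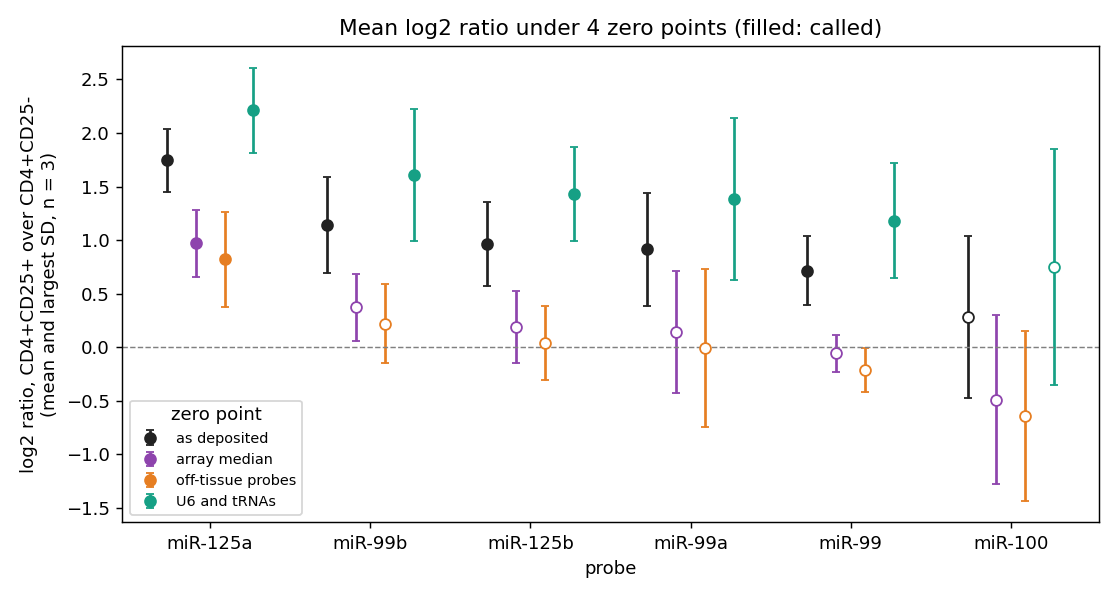
Mean log2 ratio, CD4+CD25+ relative to CD4+CD25- cells (vertical axis), of the 6 probes under 4 zero points, with the largest SD over the pairings as error bars (n = 3). Filled points were called by limma and open points were not. miR-125a is filled under all 4, from 0.82 to 2.21, and the 4 probes miR-99b, miR-125b, miR-99a and miR-99 only as deposited and with the zero on U6 and the tRNAs.

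The contrast between the chromosome 17 cluster and the other members was then taken within each array, where the zero point cancels. The mean of miR-125a and miR-99b minus the mean of miR-125b, miR-99a and miR-100 was 1.29, 2.14 and 1.41 on the arrays with CD4+25+ in Cy5 and 0.30, -0.87 and 0.059 on those with it in Cy3. The chromosome 17 pair was thus higher by at least 1.29 on each Cy5 array, while the Cy3 arrays scattered around 0. The mean contrast was 0.72 ± 0.504 (SD, n = 3), above 0 on 5 of 6 arrays, with an exact sign-flip p of 0.25, the smallest that 3 replicates allow (0.417 adjusted over the 5 contrasts computed). The means of the orientations were 1.61 and -0.17 and did not overlap (exact permutation p = 0.10, the smallest that 3 arrays against 3 allow, and also 0.10 adjusted over the 5).

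Within the miR-125 pair, miR-125a exceeded miR-125b by 2.16, 1.76 and 1.31 with CD4+25+ in Cy5, and lay below it by a narrow margin with it in Cy3, at -0.20, -0.14 and -0.22. The orientations did not overlap, and the 3 Cy3 arrays lay close together. The mean difference was 0.78 ± 0.232 (SD, n = 3; exact sign-flip p = 0.25). Within the other family, miR-99b minus miR-99a was 0.46, 1.76 and 1.88 with CD4+25+ in Cy5 and -0.049, -1.69 and -0.98 with it in Cy3. The directions were opposite in the orientations, and the mean of 0.23 ± 0.778 was inside its spread (exact sign-flip p = 0.75 over n = 3). miR-99b minus miR-100 was 1.21, 2.82 and 1.21 with CD4+25+ in Cy5 and 0.55, -1.63 and 0.98 with it in Cy3, with a mean of 0.86 ± 1.05 (exact sign-flip p = 0.50 over n = 3). This difference was below 0 on array 4 alone.

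Within the cluster itself, miR-125a and miR-99b had nearly the same ratio on the arrays with CD4+25+ in Cy5, with differences of 0.10, 0.15 and -0.35. On the swapped arrays miR-125a was higher by 1.19, 1.72 and 0.79. The orientations did not overlap (means -0.034 and 1.23, exact permutation p = 0.10 for 3 arrays against 3). In each of the 5 contrasts the 3 arrays of one orientation lay above the 3 of the other. The contrasts reuse the same probes, so they are not separate observations. Relative to the array median 45.6% of all miRNA probes had a dye effect in limma. How often differences between other probes separate by dye was not computed.

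**Figure D3:**
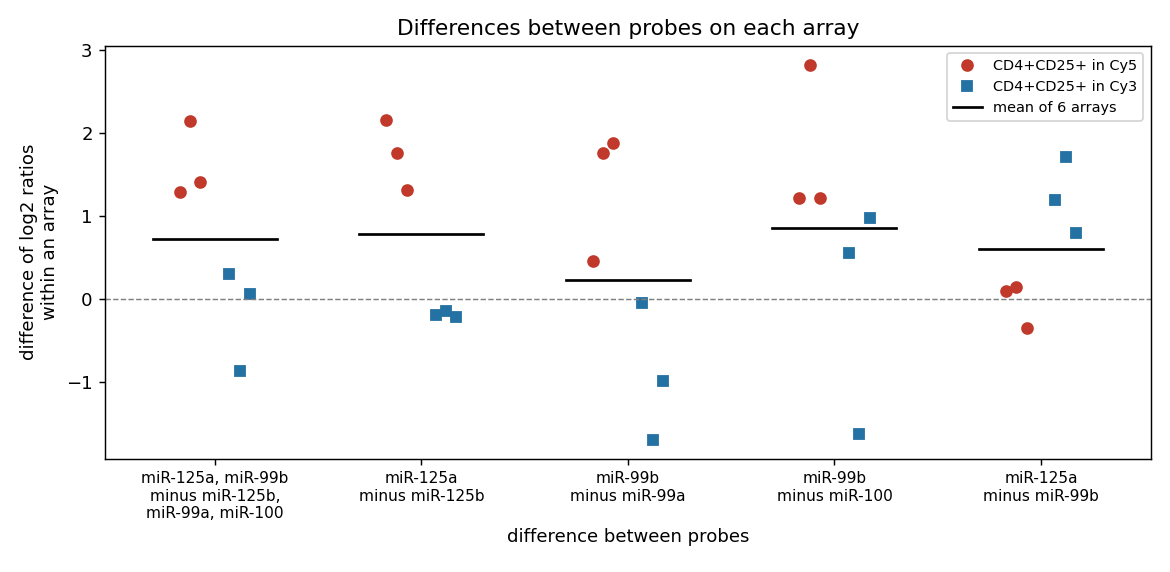
Difference of log2 ratios between probes within an array (vertical axis) for 5 contrasts (horizontal axis), with circles for the 3 arrays with CD4+CD25+ RNA in Cy5, squares for the 3 with it in Cy3 and bars for the mean of 6 arrays. The cluster contrast lies between 1.29 and 2.14 in the first orientation and between -0.87 and 0.30 in the second.

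The dependence on the dye was tested with limma over the 6 arrays with a column for the dye. This fit treats the 2 arrays of a replicate as separate, since the pairs are not known, so its p-values may be too small or too large. On the turned values 4 of the 6 members had a dye effect: miR-125b, miR-99 and miR-99a with lower ratios in the Cy5 orientation (differences of -2.19, -2.13 and -1.26, limma adjusted p = 0.000114, 0.000134 and 0.0156) and miR-99b with a higher one (1.01, adjusted p = 0.0456). Of all miRNA probes 70.2% had a dye effect, 63.2% with the lower and 7.02% with the higher ratio in that orientation. Relative to the array median the members with a dye effect were miR-125a, by 1.49 (limma adjusted p = 0.00106), and miR-99b, by 2.76 (adjusted p = 7.17e-06), both higher in the Cy5 orientation. Of all miRNA probes 45.6% had a dye effect there, 33.9% with the higher and 11.7% with the lower ratio in the Cy5 orientation. For miR-125b, miR-99a, miR-99 and miR-100 the dye effect did not pass there. Their differences were -0.44, 0.48, -0.38 and 0.97 (limma adjusted p = 0.307, 0.324, 0.341 and 0.0876), so a smaller dye effect is not excluded. So miR-125a departed from the array median mainly in one orientation and miR-99b in both, in opposite directions, while miR-125b and miR-99 stayed near it.

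Whether the deposited ratios of the swapped arrays had been turned before deposit is not stated with the table. Without turning, miR-125a would stand at -0.13 (limma adjusted p = 0.660) and at 0.74 relative to the array median (adjusted p = 0.0052), and miR-99b at 0.505 (adjusted p = 0.102) and 1.38 (adjusted p = 0.000231). On that reading miR-125b, miR-99a and miR-99 would be called lower, at -1.09, -0.63 and -1.06 (adjusted p = 0.013, 0.0309 and 0.013), as were 51.5% of all miRNA probes, with 1.75% called higher. After centring on the array median, miR-125a, miR-99b and miR-100 (0.49, adjusted p = 0.0416) would be called higher, as were 34.5% of all miRNA probes, and no member lower, as were 10.5%. The cluster contrast would be 0.89. Both readings share the arrays with CD4+25+ in Cy5, and only the sign of the Cy3 mean of -0.17 changes between them, so this is no second test of the contrast.

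**Figure D4:**
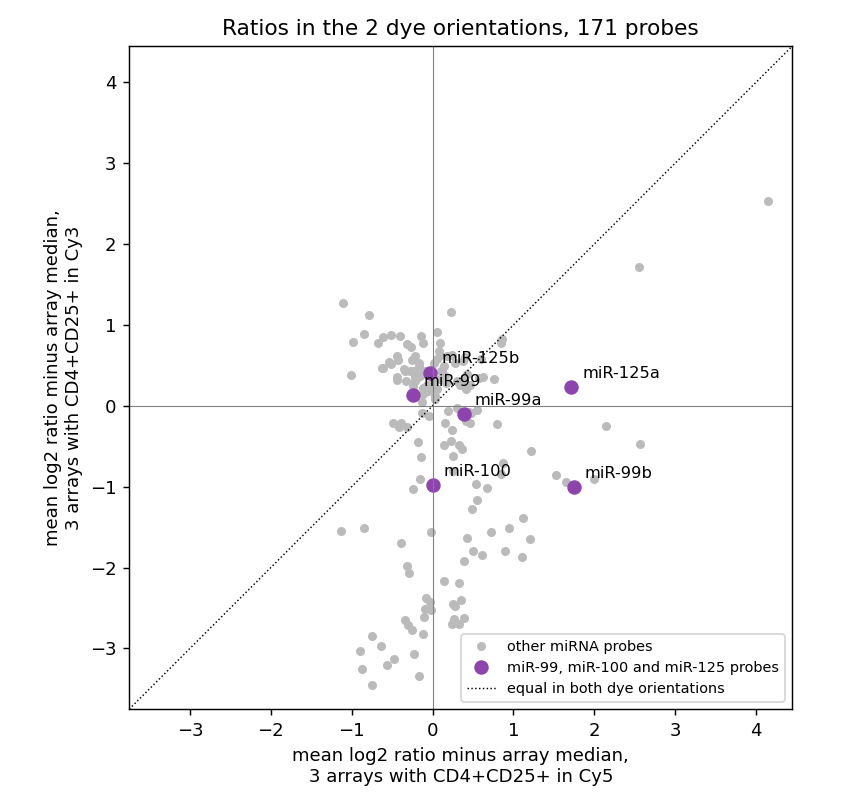
Mean log2 ratio minus the array median in the 3 arrays with CD4+CD25+ RNA in Cy5 (horizontal axis) and in the 3 with it in Cy3 (vertical axis), one point for each of 171 miRNA probes, with the members in purple and the dotted line at equal values. miR-125a lies at 1.72 and 0.23 and miR-99b at 1.75 and -1.01, while miR-125b and miR-99 lie near the centre.

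The off-tissue probes gave a second reference. Relative to their median on each array, miR-125a had 2.03, 2.59 and 1.21 with CD4+25+ in Cy5 and -0.17, -0.19 and -0.54 with it in Cy3. It stood clear of them in one orientation and slightly below them in the other, and its mean of 0.82 ± 0.444 (SD, n = 3) was called (limma adjusted p = 0.00896). miR-125b stayed close to these probes on 5 of 6 arrays, between -0.33 and 0.025, with 0.83 on array 3, and its mean was 0.040 ± 0.342 (adjusted p = 0.933). miR-99 stayed between -0.47 and 0.34 on all 6. Scanner intensities were not used here, so whether miR-125b and miR-99 were above background is unknown.

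Among markers of other cells, all 9 endothelial or stromal probes (miR-126, miR-143, miR-145, miR-199 and miR-214 forms) were called higher on the turned values, from 0.59 to 2.91, and 2 of the 9 relative to the array median, beside 67.3% and 5.26% of all miRNA probes. The off-tissue probes did much the same on the turned values, with 26 of 28 called higher, and limma called 0 of 28 relative to the median (before adjustment 2 had a p under 0.05). The myeloid miR-223 probe had 4.12 and the erythroid miR-144 probe 0.69, or 3.34 and -0.079 relative to the median. A ratio gives no level, so none of them could be shown to be at 0. miR-99a, miR-100 and miR-125b are known to be abundant in stromal cells, and the part of such cells in the members' ratios was not tested.

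The let-7 miRNAs of the same clusters are known to hold cells in a differentiated state. Over both dyes they had lower mean ratios than their neighbours, a difference that was not tested. This order did not hold in each orientation. With CD4+25+ in Cy3 the mean of let-7e was 1.39 against 0.64 for miR-99b. With it in Cy5 the mean of let-7a was 0.145 against -0.10 for miR-100. In both orientations let-7c lay below miR-99a, and let-7e below miR-125a. let-7e, between miR-99b and miR-125a, had -0.36, -0.80 and -0.089 with CD4+25+ in Cy5 and 1.59, 1.21 and 1.37 with it in Cy3, with a mean of 0.49 ± 0.275 (SD, n = 3; limma adjusted p = 0.0907). It lay below the array median on 6 of 6 arrays (7.60% of all miRNA probes did), with a mean of -0.29 relative to it (adjusted p = 0.296). let-7c, beside miR-99a, was lower in CD4+25+ cells at -1.03 ± 0.518 (limma adjusted p = 0.00569) and at -1.80 relative to the median (adjusted p = 6.58e-05). let-7a, beside miR-100, had -0.45 ± 0.750 (adjusted p = 0.113) and was called lower relative to the median at -1.23 (adjusted p = 0.00142). Both calls relative to the median came mainly from the arrays with CD4+25+ in Cy3. There the means were -3.13 for let-7c and -2.70 for let-7a, against -0.47 and 0.245 with CD4+25+ in Cy5. The dye effect had a limma adjusted p of 9.98e-06 for each, and let-7a changed sign between the orientations. Of these 3 partners 1 was called lower on the turned values and none higher, beside 8.77% of all probes called lower. Relative to the array median 2 of the 3 were called lower, beside 22.8% of all miRNA probes. let-7a and let-7c are also made from genes outside these clusters, and let-7 miRNAs differ from each other by few bases.

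miR-10a and miR-10b, encoded in Hox clusters, resemble the miR-99/100 family, and miR-10a shares an unbroken run of 11 bases with miR-100. miR-10a is printed for comparison with the sequences above.
miR-10a: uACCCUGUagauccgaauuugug
Its seed is not that of the miR-99a, miR-99b and miR-100 sequences. miR-10a stood at 1.47 ± 0.331 (SD, n = 3; limma adjusted p = 0.00411) and miR-10b at 0.73 ± 0.672 (adjusted p = 0.0345), which relative to the array median was -0.039 and not called (adjusted p = 0.900), against 0.69 for miR-10a (adjusted p = 0.00593). Relative to the array median miR-10a had 0.47, 0.22 and -0.0040 with CD4+25+ in Cy5 and 1.13, 1.03 and 1.33 with it in Cy3. That is the reverse of the pattern of miR-99b, with the height on the Cy3 arrays.

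The probes whose values lay nearest to each member over the 6 arrays, relative to the array median, were found by root mean square difference. For miR-125a they were miR-146 (0.62), miR-22 (0.70) and miR-24 (0.81), against a median distance of 1.44 to all non-member probes. Of these, miR-146 had nearly the same mean ratio as miR-125a, 1.72 on the turned values and 0.95 relative to the median (limma adjusted p = 0.00411 and 0.00161). miR-99b lay nearest to miR-21 (0.24, against a median of 1.62), and 0.93 from its cluster partner miR-125a. The first is the smallest distance over all non-member probes, so it is not a like comparison with a single named partner. miR-125b lay nearest to miR-190 (0.26), miR-99a to miR-199-as (0.47), miR-100 to miR-143 (0.35) and miR-99 to miR-212 (0.17). Among the members themselves the closest pair was miR-125b and miR-99 (0.32). Their probe numbers are those of different families, but the miR-99 probe was not assigned to a sequence. miR-99a and miR-100 lay 1.03 apart, and the probes miR-99a and miR-99 lay 0.76 apart. These distances are descriptions over 6 arrays and share the dye pattern of the arrays.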

How the data were processed

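The deposited value table gives the log ratio that the authors computed from the channels, read here as log2, for 178 probes on 6 arrays, of which 171 were miRNA probes and 7 small nuclear RNA or tRNA probes. The sources used here give no log base, background correction, normalization or scanner, and the array medians show that the values were not centred. Probe names follow the numbers of the probe IDs, and the platform annotation gave a symbol for 2 of the 6 members (miR-99a and miR-99b). The fit was limma 3.58.1 in R 4.3.3 (lmFit, intercept only, then eBayes) on 3 means of arrays of opposite dye, for all 6 pairings. limma pooled the variance largely over probes, so its p-values do not follow from the SDs alone. Arrays were turned by dye and fitted as deposited, then centred on the median, on the median of 28 off-tissue probes, or on the mean of U6 and 4 tRNA probes. Contrasts were tested by exact sign flips. Alternatives were scale normalization (arrays brought to one median absolute value), the fit over 6 arrays with a dye column, each dye orientation alone, unturned ratios, leaving out the noisiest 10% of probes, robust eBayes and leaving out an array of each orientation. The steps were tested on simulated data. Members, lists, tests and named probes (the cluster partners, seed sharers, miR-10 probes and nearest probes) were chosen with earlier results of these data known. Arrays have no depth, and their number limits the precision.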

Additional observations from a re-analysis of the deposited data

Results flagged for a closer look

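The ratios of 2 members differed between the dye orientations in limma with a dye column. Relative to the array median, the ratio with CD4+25+ in Cy5 exceeded that with it in Cy3 by 1.49 for miR-125a (means 1.72 and 0.23, limma adjusted p = 0.00106, all 3 Cy5 arrays above all 3 Cy3 arrays) and by 2.76 for miR-99b (means 1.75 and -1.01, adjusted p = 7.17e-06, likewise without overlap). Relative to the array median 33.9% of all miRNA probes had a dye effect in this direction, and 45.6% in either direction.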

How the results depend on the processing

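Of the 6 members 5 were called higher on the turned values (67.3% of all miRNA probes), 1 after median (5.26%) or off-tissue centring (3.51%), 2 after scale normalization (5.26%), 5 with the zero on U6 and tRNAs (73.7%), 2 on the arrays with CD4+25+ in Cy5 (7.02%), 4 on those with it in Cy3 (71.3%) and 0 without turning (1.75%; there 3 were lower in limma, as were 51.5%). Leaving out an array of each orientation gave 0 to 5, with 0 without arrays 3 and 2 (0% of all miRNA probes), 1 without 5 and 6 (1.17%), and 3 without 1 and 2 (28.7%) or 1 and 6 (32.2%). Called under both centrings, a criterion added after the data were seen, was 1 member (miR-125a), beside 5.26% of all miRNA probes. The count was 2 after scale normalization (5.26%) or on the Cy5 arrays (7.02%), in both with miR-99b. It was 0 on the Cy3 arrays (22.8%) or without turning (1.75%), and 0 to 1 in the leave-one-out fits. There it was 0 without arrays 3 and 2 (0% of all miRNA probes), 1 and 4 (2.34%) or 1 and 6 (0.585%). miR-125a kept its sign in the 9 such fits, from 1.59 to 1.88 and from 0.81 to 1.12 relative to the median. The cluster contrast reversed to -0.17 on the Cy3 arrays and was 0.47 to 0.98 in the leave-one-out fits, 1.45 after scale normalization and 0.42 with miR-99b alone. The dye effect fell on 4 members as deposited and 2 after median centring. Signs reversed for miR-125a without turning (-0.13), miR-125b on the Cy5 arrays (-0.13) and without turning (-1.09), miR-99a with off-tissue centring (-0.0084) and without turning (-0.63), miR-99 with median (-0.057) and off-tissue centring (-0.21), on the Cy5 arrays (-0.35) and without turning (-1.06), miR-100 with median (-0.49) and off-tissue centring (-0.64), on the Cy5 arrays (-0.10), without turning (-0.39) and in the leave-one-out fits (-0.075 without arrays 5 and 4, up to 0.68), and for miR-99b relative to the median on the Cy3 arrays (-1.01). The cause was not tested. No paired analysis was possible because no label ties an array to its replicate; all 6 pairings were fitted instead.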
